A study of Mus musculus with 4 samples.

Results

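The amino acid transporter genes described here are those of 6 solute carrier families, Slc1a, Slc3a, Slc7a, Slc36a, Slc38a and Slc43a, in mouse embryonic stem cells labelled Usp28 KO (knockout) and in control cells. Members were taken by symbol from the protein-coding genes of GENCODE M21, as a family name followed only by digits. The imprinted Slc38a4 was left out. This gave 41 genes of the 55401 in the deposited count table: 7 of Slc1a, 2 of Slc3a, 15 of Slc7a, 4 of Slc36a, 10 of Slc38a and 3 of Slc43a. Polyadenylated RNA was sequenced from R1 cells, an established mouse embryonic stem cell line. The Usp28 KO group and the control group, labelled wild type, had 2 libraries each. Cells of both groups were kept on gelatin, in N2B27 medium that held leukaemia inhibitory factor, CHIR99021 (a GSK3 inhibitor) and PD0325901 (a MEK inhibitor). The labels do not say how Usp28 was targeted, how many clones were used, or whether the 2 libraries of each group are separate cultures. The p-values below therefore rest on library-to-library spread that could be technical alone.

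Solute carriers of these families move amino acids across the plasma membrane or out of lysosomes. Slc1a genes encode sodium-coupled carriers of glutamate and of small neutral amino acids. Slc7a genes encode cationic amino acid transporters and the light chains of paired exchangers, and the paired light chains reach the cell surface bound to a heavy chain encoded by an Slc3a gene. Slc38a genes encode sodium-coupled carriers of neutral amino acids such as glutamine, Slc36a genes encode proton-coupled carriers, and Slc43a genes encode facilitative transporters. Several of them, Slc7a11, Slc38a2, Slc7a5 and Slc3a2 among them, are known targets of ATF4, the transcription factor of the amino acid response, and lysosomal SLC38A9 signals arginine to mTORC1.

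Promoter windows are shown for Slc38a2 and Slc7a6, the genes with the smallest unadjusted p below, and for Slc7a11, whose window holds a pair of matches to the amino acid response motif. The windows are RefSeq sequences on GRCm38.p6, 250 bases before to 50 after a transcription start, written along the gene's strand, and capitals mark matches to any of the motifs searched. The windows lie at chr15:96699679-96699978 (minus strand) for Slc38a2, at chr8:106168671-106168970 (plus strand) for 1 of the Slc7a6 starts and at chr3:50443564-50443863 (minus strand) for Slc7a11.
Slc38a2: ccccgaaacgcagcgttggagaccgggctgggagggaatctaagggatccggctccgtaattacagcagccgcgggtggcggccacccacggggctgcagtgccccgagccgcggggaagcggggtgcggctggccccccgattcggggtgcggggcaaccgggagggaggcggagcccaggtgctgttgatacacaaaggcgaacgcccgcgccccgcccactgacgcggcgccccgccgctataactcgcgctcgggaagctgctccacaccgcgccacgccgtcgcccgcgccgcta
Slc7a6: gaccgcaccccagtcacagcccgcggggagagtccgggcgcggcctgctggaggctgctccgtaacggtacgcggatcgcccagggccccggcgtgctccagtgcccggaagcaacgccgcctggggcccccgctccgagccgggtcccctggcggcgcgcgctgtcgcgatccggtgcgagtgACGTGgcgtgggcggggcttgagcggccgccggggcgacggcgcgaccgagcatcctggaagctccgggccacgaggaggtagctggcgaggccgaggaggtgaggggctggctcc
Slc7a11: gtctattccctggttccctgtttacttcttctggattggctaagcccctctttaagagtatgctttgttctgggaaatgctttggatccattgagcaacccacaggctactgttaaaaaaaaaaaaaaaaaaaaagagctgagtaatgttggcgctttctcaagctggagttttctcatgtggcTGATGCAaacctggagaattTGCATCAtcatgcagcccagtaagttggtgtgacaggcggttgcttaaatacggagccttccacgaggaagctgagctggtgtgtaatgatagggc

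The motifs were searched on both strands of 39 windows from 30 of the 41 genes. TGATGNA, the first letters of the core of the amino acid response element, was in 6 of the 39 windows (15.4%), against 12.2% of all 32851 promoter windows of that length. The E-box CACGTG was in 7 windows (17.9%, against 7.15% of all windows). Among them were those of Slc1a6, Slc1a7, Slc38a5 and Slc7a14, whose counts were too low to be tested below. ACGTG, the core of a hypoxia response element, which is also part of each E-box, was in 15 windows (38.5%, against 19.6% of all windows). Windows of the same gene can overlap and share a match. Counted by gene, TGATGNA was in 5 of the 30 genes, CACGTG in 7 and ACGTG in 13. The Slc7a11 matches to TGATGNA begin at -66 and -46 relative to the start. A window of Slc7a7, not shown, also holds a pair of matches to TGATGNA, beginning at -141 and -1. The Slc7a6 window shown holds 1 match to ACGTG, beginning at -66. The overlapping window of the other Slc7a6 start holds 2, of which 1 is that same site. The Slc38a2 window holds none of the letter strings searched. Slc1a5, Slc36a2, Slc38a1, Slc38a3, Slc43a3, Slc7a12, Slc7a13, Slc7a2, Slc7a3, Slc7a4 and Slc7a5 were not searched.

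The libraries held 17996611 and 18709558 counts in the Usp28 KO group and 19533608 and 16595196 in the control group. The count of Usp28 itself, a deubiquitinase gene, was 3392 and 3319 in the Usp28 KO libraries and 3690 and 3120 in the control libraries (-0.11 ± 0.15 as a log2 fold change with its standard error, used throughout; edgeR adjusted p = 0.857). That count cannot serve as a check of the knockout, and groups are named as labelled. The 10 stem cell markers examined all passed the filter on low counts, at summed levels of 5136 and 5300.1 CPM in Usp28 KO and 5562 and 5589 CPM in control libraries. Of 10 fibroblast markers, Dcn, Lum and Postn had no read, and the list summed to 272 and 296 CPM in Usp28 KO and 377 and 308 CPM in control libraries, nearly all of it Vim. The stem cell markers Pou5f1, Sox2, Nanog and Esrrb each overlapped between the groups, and the other markers of that list are not given singly here. The sums of both lists were lower in both Usp28 KO libraries. The part of these sums in the differences below was not tested. Lists of primitive endoderm, neural, mesoderm and trophoblast markers overlapped between the groups, at between 15.1 and 152 CPM in Usp28 KO and between 15.4 and 161 CPM in control libraries. The highest of these sums were those of the trophoblast list, of which only 1 of 5 genes passed the filter. Fewer cells of a type and less RNA per cell cannot be told apart in such bulk samples. Libraries also differed in how expression varied with transcript GC content. Across 10701 genes, which are not independent replicates, the rank correlation of a library's log2 CPM, relative to the other libraries, with GC content was 0.0154 and 0.455 in Usp28 KO replicates 1 and 2, and 0.0577 and -0.46 in control replicates 1 and 2. Its part in the differences below was not tested beyond the fold changes given with GC offsets, which take this trend out of each library.

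Reads reached 26 of the 41 genes in numbers that passed edgeR's filter on low counts, and 23 averaged at least 1 CPM, a count rescaled to a fixed library total. Levels between genes are compared per kilobase of merged exon (CPM per kb), a measure that reads low for genes with long, little-used exons. The light chain gene Slc7a5, which encodes the carrier of large neutral amino acids, and its heavy chain gene Slc3a2 stood at the top, at 92.6 ± 6.99 and 96.2 ± 13.6 CPM per kb in Usp28 KO libraries and 87.6 ± 1.26 and 80.7 ± 1.76 CPM per kb in control libraries (SD, n = 2 each). Their libraries overlapped with each other and lay above those of all other members. The next step held the sodium-coupled carrier gene Slc38a2, the glutamine carrier gene Slc1a5, the cationic transporter gene Slc7a3 and the lysosomal glutamine exporter gene Slc38a7, between 24.7 and 28.0 CPM per kb over all libraries. Neighbours within that step were not separated by their spread. Below them came Slc38a10 and Slc7a7 at 17.1 and 16.3 CPM per kb, and then Slc38a1, Slc1a4, Slc7a6 and Slc7a1 between 9.69 and 12.2 CPM per kb. Slc36a1, Slc43a1 and Slc1a3 followed at 3.68, 2.82 and 1.86 CPM per kb, each with its 4 libraries above those of the next gene. The cystine exchanger light chain gene Slc7a11 was near the bottom, at 0.0994 CPM per kb.

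**Figure D1:**
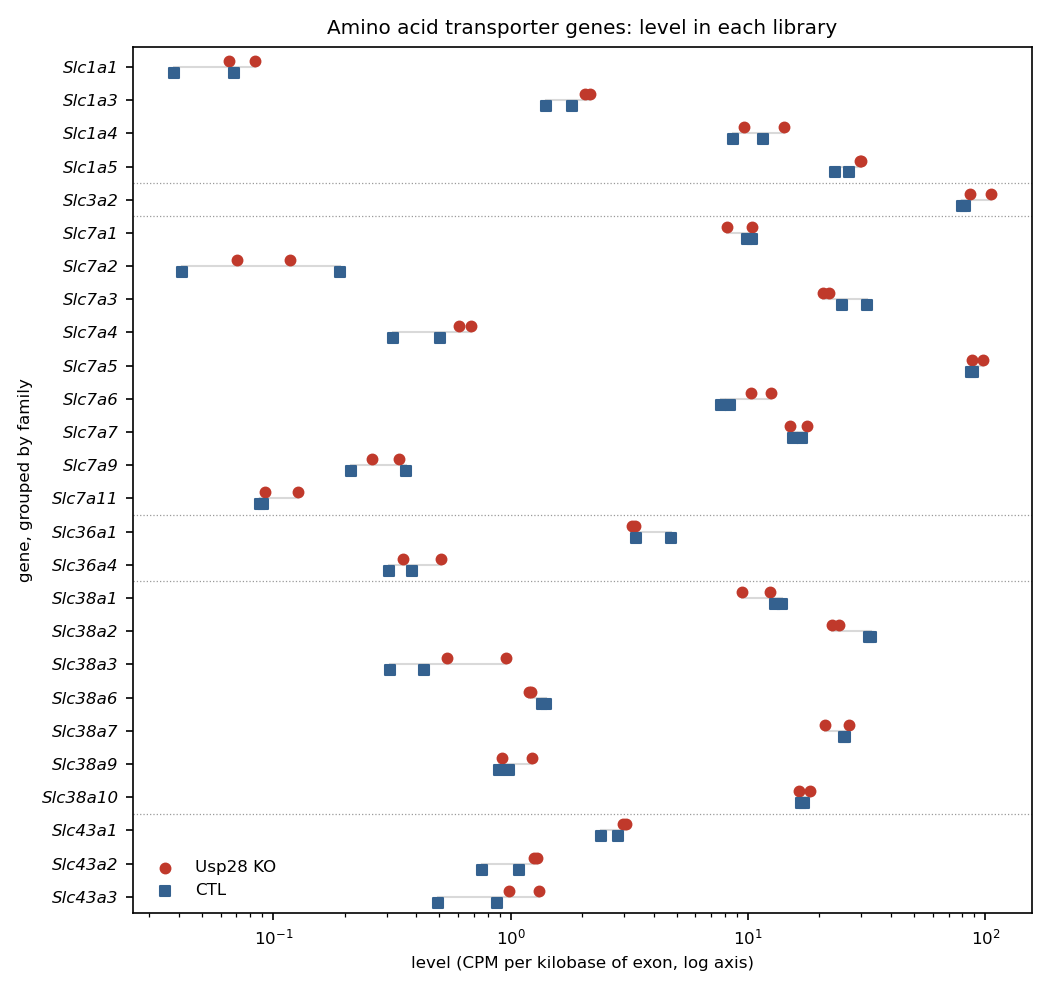
Level of each of the 26 tested transporter genes in each library, as CPM per kilobase of exon on a log axis, grouped by family. Red circles are the 2 Usp28 KO libraries and blue squares the 2 control libraries (CTL). Slc7a5 and Slc3a2 lie highest, near 90.1 and 88.4 CPM per kb over all libraries.

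The other 15 genes did not pass the filter, and none of them had more than 13 counts in a library. Slc1a7, Slc7a12, Slc7a13 and Slc38a11 had no read in any library, where a count of 0 allows up to between 0.154 and 0.189 CPM, counting error only. Slc3a1, the heavy chain gene of the kidney-type exchanger, had 0 and 2 counts in Usp28 KO libraries and 2 and 2 in control libraries. Slc7a8 and Slc7a10, both light chain genes, had at most 4 counts in a library. Slc1a6 had 6 and 8 counts in Usp28 KO and 8 and 1 in control libraries, and Slc38a5, a glutamine carrier gene, had 4 and 10 in Usp28 KO and 13 and 1 in control libraries. Slc7a14 had 6 and 6 counts in Usp28 KO and 5 and 0 in control libraries. Slc1a2, Slc7a15, Slc36a2, Slc36a3 and Slc38a8 had between 0 and 4 counts in each library.

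No transporter gene passed the test between the groups in the fit without a replicate term. By edgeR's quasi-likelihood test with Benjamini-Hochberg adjustment over 15341 genes, an adjusted p under 0.05 was reached by 0 of the 26 tested members with a higher level in Usp28 KO and 0 with a lower one, where the shares over all tested genes were 0% and 0%. The lowest adjusted p among members was 0.278, for Slc38a2. At an unadjusted p under 0.05, Slc38a3, Slc43a3 and Slc7a6 were higher and Slc38a2 and Slc7a3 lower, 3 and 2 of 26, where 6.86% and 4.34% of all tested genes were. DESeq2 called 0 of the 22 members to which it gave an adjusted p (lowest 0.212), against 0.687% of genes called higher and 0.393% called lower, and at an unadjusted p under 0.05 it had 2 members higher and 2 lower, against 4.54% and 3.51% of genes. The limma-voom test called 0 of 26, against 0% of all genes in each direction, and at an unadjusted p under 0.05 it had 3 higher and 2 lower, against 6.85% and 4.3% of genes. Both Usp28 KO libraries lay above both control libraries for 10 of the 26 members, against 21.4% of all tested genes, and below them for 5, against 20.4%. As a description of the members that passed, the median log2 fold change, Usp28 KO over control, was 0.20 over the 26 members and -0.0040 over all tested genes, and the members' median was 0.047 without Usp28 KO replicate 2.

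**Figure D2:**
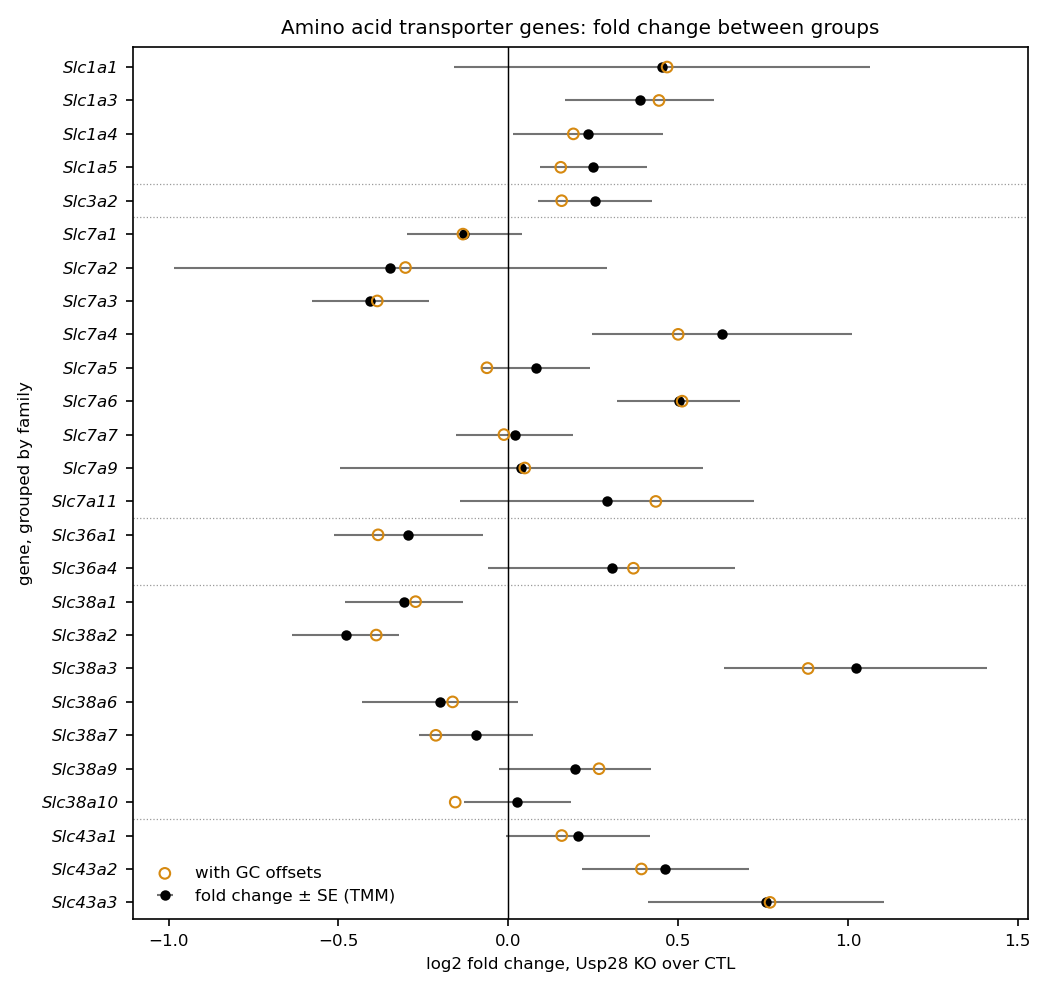
Log2 fold change, Usp28 KO over control, of the 26 tested transporter genes, grouped by family, with its standard error (black, edgeR) and after GC offsets (open orange circles). Fold changes run from -0.48 for Slc38a2 to 1.02 for Slc38a3, and all have an adjusted p above 0.05.

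The Slc38a family held the member with the smallest p. Slc38a2, whose product is the amino acid carrier that cells adjust to amino acid supply, was at 199.8 and 214 CPM in the Usp28 KO libraries, against 285 and 292 CPM in the control libraries. Both Usp28 KO libraries were low, by more than the spread within either group. The log2 fold change was -0.48 ± 0.16 (edgeR adjusted p = 0.278), it was -0.39 with GC offsets, and it lay between -0.53 and -0.43 when any 1 library was left out. Slc38a1, a close relative with similar substrates, lies 44.5 kb from Slc38a2 on chromosome 15 (96571418 to 96642913, and 96687392 to 96699730 for Slc38a2; mm10). It was at 163 and 214 CPM in Usp28 KO and 225 and 241 CPM in control libraries. The groups did not overlap, although Usp28 KO replicate 2 lay close to control replicate 1 (log2 fold change -0.31 ± 0.17, edgeR adjusted p = 0.554). The value was -0.13 without Usp28 KO replicate 1 and -0.52 without Usp28 KO replicate 2. The Slc38a2 level per kb over that of Slc38a1 was 2.39 and 1.96 in Usp28 KO libraries and 2.47 and 2.36 in control libraries, so Usp28 KO replicate 1 overlapped with the controls in this ratio.

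Slc38a3, a glutamine carrier gene best known from liver, kidney and brain, went the other way from a low level. It was at 2.84 and 5.07 CPM in Usp28 KO libraries, which is 53 and 95 counts, against 1.64 and 2.27 CPM in control libraries, 32 and 36 counts. Usp28 KO replicate 2 was the highest of the 4. The log2 fold change was 1.02 ± 0.39 (edgeR adjusted p = 0.342) and was 0.54 without Usp28 KO replicate 2. The lysosomal members differed by less than that. Slc38a7 was at 87.1 and 111 CPM in Usp28 KO and 105 and 106 CPM in control libraries, and the groups overlapped. Slc38a9, the arginine sensor gene, was at 20.6 and 15.4 CPM in Usp28 KO and 16.4 and 14.9 CPM in control libraries, again with overlap (log2 fold change 0.20 ± 0.22). Slc38a6 was at 9.31 and 9.44 CPM in Usp28 KO and 10.95 and 10.6 CPM in control libraries, without overlap (-0.20 ± 0.23, edgeR adjusted p = 0.801). Slc38a10 stood at 105 and 117 CPM in Usp28 KO and 111 and 108 CPM in control libraries. Its log2 fold change of 0.027 ± 0.16 was -0.16 with GC offsets.

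Among the cationic amino acid transporter genes, which carry arginine, lysine and ornithine, Slc7a3 was lower in both Usp28 KO libraries. It had 83.4 and 78.5 CPM in Usp28 KO libraries, against 120.3 and 94.1 CPM in control libraries. The control replicates were further apart than the groups' nearest libraries, and the log2 fold change of -0.41 ± 0.17 did not pass (edgeR adjusted p = 0.398). It was -0.22 without control replicate 1. Slc7a1, the widely expressed member, was at 93.9 and 119 CPM in Usp28 KO and 114 and 119.8 CPM in control libraries, so the groups overlapped (-0.13 ± 0.17). Per kb, Slc7a3 exceeded Slc7a1 in every library. That order depends on the exon lengths used, since in CPM Slc7a1 was above Slc7a3 in both Usp28 KO libraries and in control replicate 2. The Slc7a1 level per kb over that of Slc7a3 was 0.369 and 0.4998 in Usp28 KO and 0.310 and 0.418 in control libraries. Slc7a2 was sparse, with 20 and 12 counts in Usp28 KO and 34 and 6 in control libraries. Its control replicates were the extremes of the 4. Slc7a4, a relative of this group, had 2.84 and 2.51 CPM in Usp28 KO and 2.10 and 1.32 CPM in control libraries, without overlap (log2 fold change 0.63 ± 0.38, edgeR adjusted p = 0.590), and the value was 0.34 without control replicate 2 and 1.007 without control replicate 1.

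Of the genes of the paired exchangers, the heavy chain gene Slc3a2 and the light chain genes Slc7a6 and Slc7a11 were higher in both Usp28 KO libraries, and Slc7a5 and Slc7a7 overlapped between the groups. Slc3a2, whose product carries the light chains to the surface, was at 306 and 373 CPM in Usp28 KO libraries, against 280.3 and 289 CPM in control libraries. Usp28 KO replicate 2 was the high one, and without it the log2 fold change of 0.25 ± 0.17 was 0.097 (edgeR adjusted p = 0.623 over all 4 libraries). Slc7a5 stood at 325 and 362 CPM in Usp28 KO and 328 and 321 CPM in control libraries. Its groups overlapped, and the log2 fold change was 0.081 ± 0.16, or -0.063 with GC offsets. Slc7a6 encodes a light chain that exchanges cationic for neutral amino acids, and it was at 57.4 and 46.9 CPM in Usp28 KO libraries, against 38.4 and 35.3 CPM in control libraries. Both Usp28 KO libraries lay above both controls, by 0.50 ± 0.18 in log2 fold change (edgeR adjusted p = 0.323), and the value was 0.51 with GC offsets and between 0.35 and 0.63 with any 1 library left out. Slc7a7, which encodes a light chain with similar exchange activity, was at 49.97 and 58.9 CPM in Usp28 KO and 56.3 and 51.3 CPM in control libraries, with overlap. Slc7a11 had 33 and 24 counts in Usp28 KO and 24 and 20 in control libraries, at 1.77 and 1.28 CPM and 1.23 and 1.26 CPM. Its log2 fold change of 0.29 ± 0.43 was smaller than its standard error, and it was 0.040 without Usp28 KO replicate 1. Slc7a9, the light chain gene that pairs with Slc3a1, was at 0.695 and 0.907 CPM in Usp28 KO and 0.972 and 0.568 CPM in control libraries, with overlap.

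Per kb of merged exon, the summed light chain genes Slc7a5, Slc7a6, Slc7a7, Slc7a8, Slc7a10 and Slc7a11 exceeded Slc3a2 in every library. That excess depends on the exon lengths used, since the measure reads low for genes with long, little-used exons. The ratio of light chains to Slc3a2 was 1.33 and 1.19 in Usp28 KO libraries and 1.43 and 1.34 in control libraries. Usp28 KO replicate 1 lay just below control replicate 2, so the groups did not overlap, but the gap between those 2 libraries was smaller than that between replicates of either group. Slc7a5 made up 75.9% and 77.5% of the light chain sum in Usp28 KO and 77.6% and 78.8% in control libraries. Slc7a6 made up 10.9% and 8.16% in Usp28 KO and 7.37% and 7.03% in control libraries, and Slc7a7 13.0% and 14.1% in Usp28 KO and 14.9% and 14.1% in control libraries. The log2 ratio of the groups' mean light chain to Slc3a2 ratios was -0.14, and -0.058 without Usp28 KO replicate 2. With 2 libraries against 2, an exact two-sided permutation test of such a ratio cannot go below p = 0.333, so none is given.

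**Figure D3:**
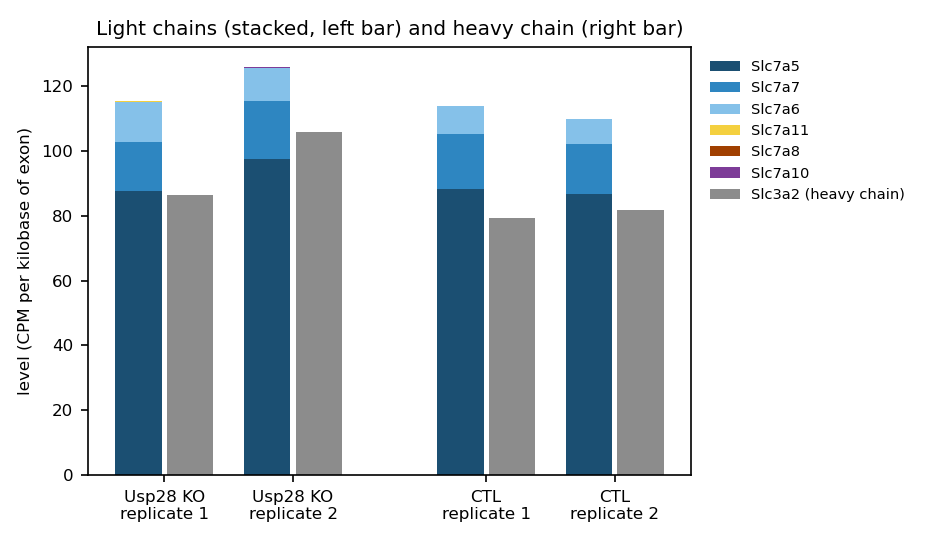
Level in CPM per kilobase of exon of the light chain genes (stacked, left bar of each pair) and of the heavy chain gene Slc3a2 (grey, right bar) in each library. Slc7a5 forms most of each stack, at 75.9% to 78.8%, and the stack is higher than the grey bar in all 4 libraries.

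All tested Slc1a members had positive fold changes, and none passed. Slc1a5, whose product exchanges glutamine and other neutral amino acids, was at 125 and 123 CPM in Usp28 KO libraries, against 111 and 97.5 CPM in control libraries. The groups did not overlap (log2 fold change 0.25 ± 0.16, edgeR adjusted p = 0.604), and the value was 0.15 with GC offsets and 0.15 without control replicate 2. Slc1a3, a glutamate carrier gene of glia and of other cells, had 17.5 and 18.5 CPM in Usp28 KO and 12.1 and 15.5 CPM in control libraries, also without overlap (0.39 ± 0.22, edgeR adjusted p = 0.558, and 0.21 without control replicate 1). Slc1a4, a carrier gene for alanine, serine and cysteine, was at 37.9 and 55.7 CPM in Usp28 KO and 34.1 and 45.6 CPM in control libraries. Here replicate 2 was the higher one in both groups, the groups overlapped, and the log2 fold change of 0.23 ± 0.22 was -0.076 without Usp28 KO replicate 2. Slc1a1, the neuronal glutamate carrier gene, had 10 and 13 counts in Usp28 KO and 11 and 5 in control libraries. Of its exon bases 31.9% overlap another gene on the opposite strand, and the strand setting of the counting is not given in the sources used here. Members of other families had such overlaps too, among them Slc3a1 (26.5%, with Prepl), Slc7a10 (17.9%, with Lrp3) and Slc7a7 (7%, with Oxa1l). Prepl, Lrp3 and Oxa1l each had at least 114 counts in every library.

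In the Slc36a family, Slc36a1 encodes a proton-coupled carrier of small amino acids found at the plasma membrane and on lysosomes. It was at 18.3 and 18.88 CPM in Usp28 KO and 26.7 and 18.92 CPM in control libraries. Control replicate 1 was the high one, and the other 3 libraries lay together; the log2 fold change of -0.29 ± 0.22 was -0.025 without it. Slc36a4 had 3.32 and 2.29 CPM in Usp28 KO and 2.51 and 2.02 CPM in control libraries, with overlap (0.30 ± 0.36, and 0.014 without Usp28 KO replicate 1). On chromosome 11, Slc36a2 lies 19.3 kb from Slc36a1, and Slc36a3 lies 6.76 kb beyond Slc36a2. Both had at most 1 count in any library.

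The Slc43a members were low to moderate and higher in both Usp28 KO libraries in each case, as were 21.4% of all tested genes. None of them passed. Slc43a1 and Slc43a2 encode facilitative carriers of branched-chain and other large neutral amino acids, while the product of Slc43a3 is known as a purine nucleobase transporter. Slc43a1 was at 17.0 and 17.4 CPM in Usp28 KO and 13.8 and 16.1 CPM in control libraries (log2 fold change 0.21 ± 0.21, edgeR adjusted p = 0.776). Without control replicate 1 the value was 0.092, and without control replicate 2 it was 0.31. Slc43a2 was at 12.9 and 12.6 CPM in Usp28 KO and 10.9 and 7.63 CPM in control libraries (0.46 ± 0.25, edgeR adjusted p = 0.522). Control replicate 2 was the low one there, and without it the value was 0.22, or 0.74 without control replicate 1. Slc43a3, 73 kb from Slc43a1 on chromosome 2, was at 4.39 and 5.87 CPM in Usp28 KO and 2.20 and 3.91 CPM in control libraries. Its groups did not overlap (0.76 ± 0.35, edgeR adjusted p = 0.441), and the value was 0.39 without control replicate 1 and 1.21 without control replicate 2.

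Summed by family, the Slc1a, Slc3a and Slc43a genes were higher and the Slc38a genes lower in both Usp28 KO libraries. The Slc1a sum was 189.8 ± 12.3 CPM in Usp28 KO and 158.5 ± 0.724 CPM in control libraries (SD, n = 2 each). The Slc43a sum was 35.1 ± 1.10 CPM in Usp28 KO and 27.3 ± 0.609 CPM in control libraries, a ratio of 1.29, and Slc3a, which is Slc3a2 almost alone, had a ratio of 1.19. The Slc38a sum was 637 ± 69.2 CPM in Usp28 KO and 765 ± 13.2 CPM in control libraries, a ratio of 0.833, and the difference lay mainly in Slc38a2 and Slc38a1. The Slc7a sum was 644.2 ± 38.9 CPM in Usp28 KO and 644.4 ± 26.6 CPM in control libraries, and the Slc36a sum 21.5 ± 0.347 CPM in Usp28 KO and 25.1 ± 5.85 CPM in control libraries. Those last 2 families overlapped between the groups. Over all 41 genes the sum was 1867 ± 169 CPM in Usp28 KO and 1905 ± 11.7 CPM in control libraries, with overlap. Without Usp28 KO replicate 2 the log2 ratio was 0.096 in place of 0.25 for Slc3a. No test was made of these sums, since 2 libraries against 2 cannot reach an exact p below 0.333.

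**Figure D4:**
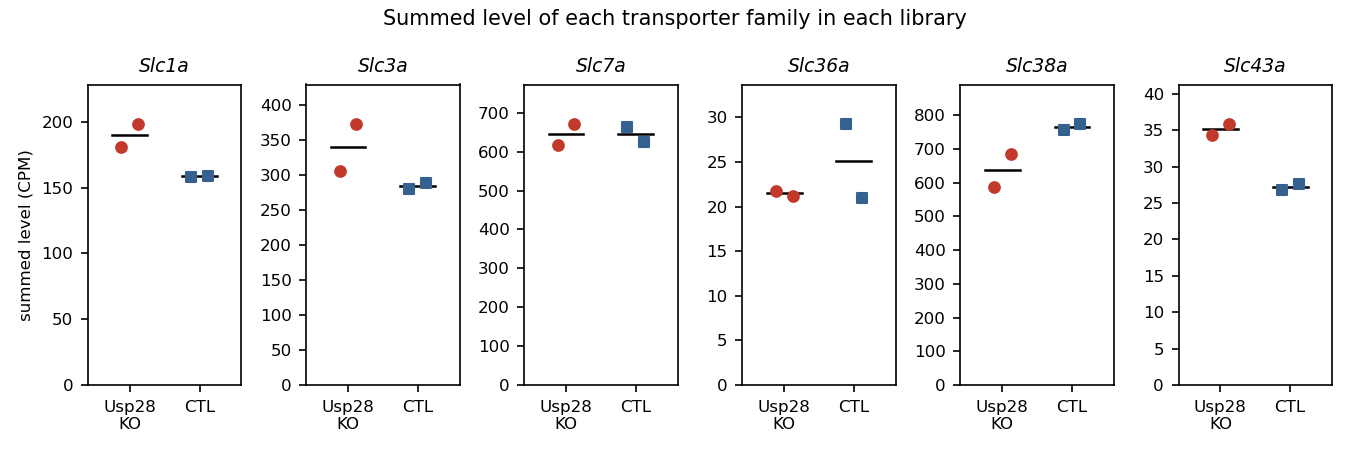
Summed level in CPM of the members of each family in each library, Usp28 KO (red circles) and control (blue squares), each axis starting at 0, with the group mean as a black line. The groups do not overlap for Slc1a, Slc3a, Slc38a and Slc43a and overlap for Slc7a and Slc36a.

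The genes around amino acid supply and sensing were read in the same fit. Over all genes tested there, 0% were called in each direction and the median log2 fold change was -0.0040. Of 23 genes of the amino acid response outside the transporter families, 0 were called higher and 0 lower, 18 had positive fold changes and the median log2 fold change was 0.18, or 0.14 with GC offsets and 0.052 without Usp28 KO replicate 2. The proline synthesis gene Pycr1 was at 71.1 and 88.7 CPM in Usp28 KO and 51.9 and 61.8 CPM in control libraries (0.49 ± 0.18, edgeR adjusted p = 0.330). Phgdh, the first enzyme gene of serine synthesis, and Ddit3, a stress transcription factor gene, had log2 fold changes of 0.40 ± 0.17 and 0.58 ± 0.26. Of 33 genes of amino acid sensing upstream of mTORC1, 0 were called in either direction and the median was -0.018, or -0.080 without control replicate 2. Lamtor2, a lysosomal scaffold gene, and the arginine sensor gene Castor1 had log2 fold changes of 0.43 ± 0.17 and 0.43 ± 0.17, and the Rag GTPase gene Rragc -0.42 ± 0.17 (edgeR adjusted p = 0.351, 0.365 and 0.375). The 20 cytosolic aminoacyl-tRNA synthetase genes lay close to 0, with 0 called and a median of 0.052, or -0.027 without Usp28 KO replicate 2. Rars, Farsb and Mars had log2 fold changes of -0.21, -0.18 and 0.15.

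Amino acid and peptide transporters of other families did not pass either, with 0 of 22 tested called each way, against 0% of all tested genes. Their median log2 fold change was -0.073, or 0.052 without control replicate 1. The lysosomal cystine exporter gene Ctns was at 24.1 and 26.2 CPM in Usp28 KO and 37.5 and 32.6 CPM in control libraries (-0.48 ± 0.19, edgeR adjusted p = 0.359). Slc6a15, a neutral amino acid carrier gene, and Slc16a10, an aromatic amino acid carrier gene, had log2 fold changes of -0.58 ± 0.23 and 0.68 ± 0.30. Of 11 genes of glutathione synthesis and cysteine use, edgeR called 0 each way, against 0% of all tested genes. Their median log2 fold change was -0.092, or 0.023 without control replicate 2. DESeq2 called 1 of them lower, against 0.393% of the genes to which it gave an adjusted p. That gene was Mat2a, which encodes the enzyme that makes S-adenosylmethionine from methionine. It was at 186 and 180.2 CPM in Usp28 KO libraries, against 306 and 316 CPM in control libraries (log2 fold change -0.76 ± 0.16, edgeR adjusted p = 0.0965, DESeq2 adjusted p = 0.00372). In the same list Gpx4, the lipid peroxide reductase gene, was at 416 and 355 CPM in Usp28 KO and 295 and 250.5 CPM in control libraries (0.50 ± 0.17, edgeR adjusted p = 0.307), and Gclm had -0.27 ± 0.16.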

How the data were processed

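Raw read counts per gene were deposited by the authors as 1 table with 4 library columns, without normalization. HISAT2, featureCounts, DESeq2 and mm10 are named without versions or roles, per the submitters' processing notes. The annotation release, strand setting and treatment of multi-mapping reads were not given in the sources used here. Exon length is the table's column of merged exon bases, per the file headers. Symbols came from GENCODE M21, by which 55141 identifiers matched without their version and 260 did not.

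Counts were analysed in R 4.3.3 with edgeR 4.0.16: filterByExpr (minimum count 10, minimum total 15; 15341 genes kept), TMM scaling, and a robust quasi-likelihood test of Usp28 KO against control across all genes, adjusted by Benjamini-Hochberg, at a threshold of 0.05. CPM uses the filtered library total times its TMM factor. Standard errors come from that fit. The procedure was also run on simulated counts. These were drawn without a GC trend and without shared deviations of same-numbered libraries, so that run cannot speak to either. Depth was 16595196 to 19533608 counts per library; replicates differed by more than sampling noise (chi-square per degree of freedom 31.2 for Usp28 KO, 33.5 for control).

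Alternatives were DESeq2 1.42.0, limma-voom (limma 3.58.1), other scaling factors, no filter, at least 50 counts in 2 libraries, a replicate block, GC offsets (a spline with 5 degrees of freedom per library), and leaving out each library. Values per library are given for members averaging at least 1 CPM, and for up to 3 genes of each other list by smallest p; counts of some sparser members are also given. The members, lists and tests were chosen with earlier results of these data known.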

Additional observations from a re-analysis of the deposited data

How the results depend on the processing

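No transporter gene was called in the fits with DESeq2, limma-voom, other scaling factors, another filter or GC offsets. Leaving out a library also gave no such call, but that leaves 1 residual degree of freedom and a lone library assumed to vary like the other group, so it says little about stability. Over all genes, counts in place of 0 higher and 0 lower were 89 and 51 by DESeq2, 18 and 3 with upper-quartile factors, 24 and 5 with library totals only, 204 and 118 with no filter, and 49 to 146 and 31 to 200 with 1 library left out; the cause was not tested. Under a replicate block, the edgeR test passed 965 genes as higher and 716 as lower (6.29% and 4.67% of those tested), among them 3 transporter genes higher (Slc43a3, Slc7a6, Slc38a3) and 2 lower (Slc38a2, Slc7a3). With the replicate block and GC offsets together it called 1131 genes higher and 1281 lower of the 15341 tested. Among the 26 transporter genes tested it called 4 higher and 3 lower, with Slc1a3 and Slc38a1 added. The labels do not say that same-numbered libraries share a culture, batch or day; their deviations from the group means correlated at 0.518 over 10704 genes, which 2 pairs do not settle. Of the 26 members tested, 17 kept the sign of their fold change under every alternative that gave them a value, 13 of them with a value under all 14. With 1 library left out, log2 fold changes ran from -0.076 to 0.49 for Slc1a4, -0.32 to 0.033 for Slc7a1, -1.03 to 1.16 for Slc7a2, -0.0033 to 0.16 for Slc7a5, -0.11 to 0.13 for Slc7a7, -0.29 to 0.49 for Slc7a9, -0.28 to 0.067 for Slc38a7, -0.032 to 0.39 for Slc38a9 and -0.059 to 0.10 for Slc38a10. With GC offsets Slc7a5, Slc7a7 and Slc38a10 were at -0.063, -0.013 and -0.16, and with the block added at -0.063, -0.016 and -0.16. Family sums, as log2 ratios, ran from 0.19 to 0.32 for Slc1a, 0.096 to 0.39 for Slc3a, -0.46 to 0.031 for Slc36a (positive without control replicate 1) and -0.38 to -0.16 for Slc38a with 1 library left out; for Slc43a the ratio was 0.42 with upper-quartile factors and 0.43 with library totals, in place of 0.37. Members under about 1 CPM rest on few counts, and depth limits what can be said of them.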
